A study of Mus musculus with 24 samples.

Results

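Gene expression in mouse fetal head (FH) was compared with that in retinoic acid differentiated CCE cells in 8 RiboMinus libraries that the labels describe as fragmented by RNA hydrolysis, 4 from each tissue, out of 24 samples in the series and 16 libraries with a processed file. Another 6 samples with these labels, 3 from each tissue and all from Nijmegen, were not analysed here. FH was dissected from wildtype FVB/N embryos at 14.5 dpc (days postcoitum). CCE is a feeder-independent embryonic stem (ES) cell line of strain 129/SvEv, and its cells had been without LIF and in 0.266 µM retinoic acid for 5 days. No transgene or deletion is stated for either tissue. Total RNA of both was depleted of ribosomal RNA with the RiboMinus kit, in 1 round for CCE and for FH preparation 1 and in 2 rounds for FH preparation 2, hydrolysed for 3.5 min and copied with random hexamers. Each of the 4 preparations (CCE1, CCE2, FH1, FH2) was sequenced at Vienna-IMP and at Nijmegen, so each tissue has 4 libraries. The preparations of CCE are technical replicates and no separate animals are stated for FH, so the p-values below measure the spread between libraries. FH was snap frozen before RNA isolation, while CCE cells went straight into TRI reagent. Strain, tissue, the in vitro culture of CCE and this handling differ together and cannot be told apart. In bulk samples, fewer cells of a type and less RNA per cell cannot be told apart either.

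The head of a fetus at this stage holds the developing brain and eyes together with skin, cartilage, bone, muscle, vessels and blood, each with its own set of genes. ES cells kept in LIF are held in the pluripotent state by a small group of transcription factors, and they leave it when LIF is withdrawn. Retinoic acid acts through nuclear receptors that bind short repeated sites in the DNA. It switches on Hox genes, which mark position along the body axis, and in ES cultures it also favours cells that resemble the endoderm of the yolk sac.

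Expression was measured as RPKM, the number of tags in the exons of a gene scaled to exon length and to all unique tags of the library, for 22380 protein-coding genes, and a gene was tested when its mean RPKM was over 3 in at least 1 tissue. Libraries held 1452794 to 2473448 unique tags. Of these, 67.4% ± 2.79 in CCE and 51.6% ± 5.81 in FH (SD, n = 4 each) lay in exons of protein-coding genes, without overlap of the tissues (exact permutation test, two-sided, p = 0.0286, the smallest p that 4 against 4 allows), and 18.0% and 33.6% lay in their introns. The 4 libraries of a tissue come from 2 preparations, and 2 units against 2 allow no p under 0.333 in such a test. The lowest exon share, 43.7%, was that of FH1 from Nijmegen, and without that library 1668 genes were called higher and 2138 lower by the rule given below. The median log2 fold change (FH to CCE, on the log2(RPKM + 1) scale) of the 10407 genes tested was -0.38. With RPKM taken over exon tags alone the median was 0.00. At an adjusted p under 0.05 (limma, Benjamini-Hochberg over all genes tested) 2278 genes (21.9%) were higher and 4641 (44.6%) lower in FH. With a change of at least 2-fold as well, which is what "called" means below, 1558 genes (15%) were higher and 2238 (21.5%) lower. On the exon tag scale 10504 genes were tested, and 2093 (19.9%) were called higher and 1250 (11.9%) lower. Every gene called higher on the main scale was also called higher on the exon tag scale, while 1250 of the 2238 lower genes were called lower on both. Counts of class members on the exon tag scale are given below over the 10407 genes tested on the main scale, of which 1954 were called higher and 1250 lower on the exon tag scale. Changes of 8-fold or more were found for 289 higher and 105 lower genes.

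Gene classes are described by how many of their tested members were called in each direction and by their median log2 fold change, to be read against these shares and against the median of -0.38. Some genes are in several lists, so the classes are not independent of one another. A gene used in 1 tissue alone passes the RPKM limit only through that tissue, so the counts describe a class and are no test of it. RPKM values are given in the order of the libraries CCE1 and CCE2 at Vienna-IMP, then CCE1 and CCE2 at Nijmegen, and in the same order for FH. A mean RPKM is followed by its SD over the 4 libraries of a tissue and a log2 fold change by its standard error. A value alone in brackets after a gene is its log2 fold change. Up to 4 members per list were picked for a large change and no overlap of the tissues, so their separation is no result. A fold change of a gene without any tag in 1 tissue is given as a lower bound, from a floor of 3 tags over the 4 libraries of that tissue, which covers counting error only. Such a bound is a ratio of tag shares without the added 1 of the log2(RPKM + 1) scale. Its size cannot be compared with that of the other fold changes, and medians with genes at their bound mix both scales. Tags carry no strand, so reads of a gene and of a partner on the other strand cannot be told apart, and 911 of the called genes share exon bases with another gene. The plot of classes shows the shares for most of the lists.

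**Figure D1:**
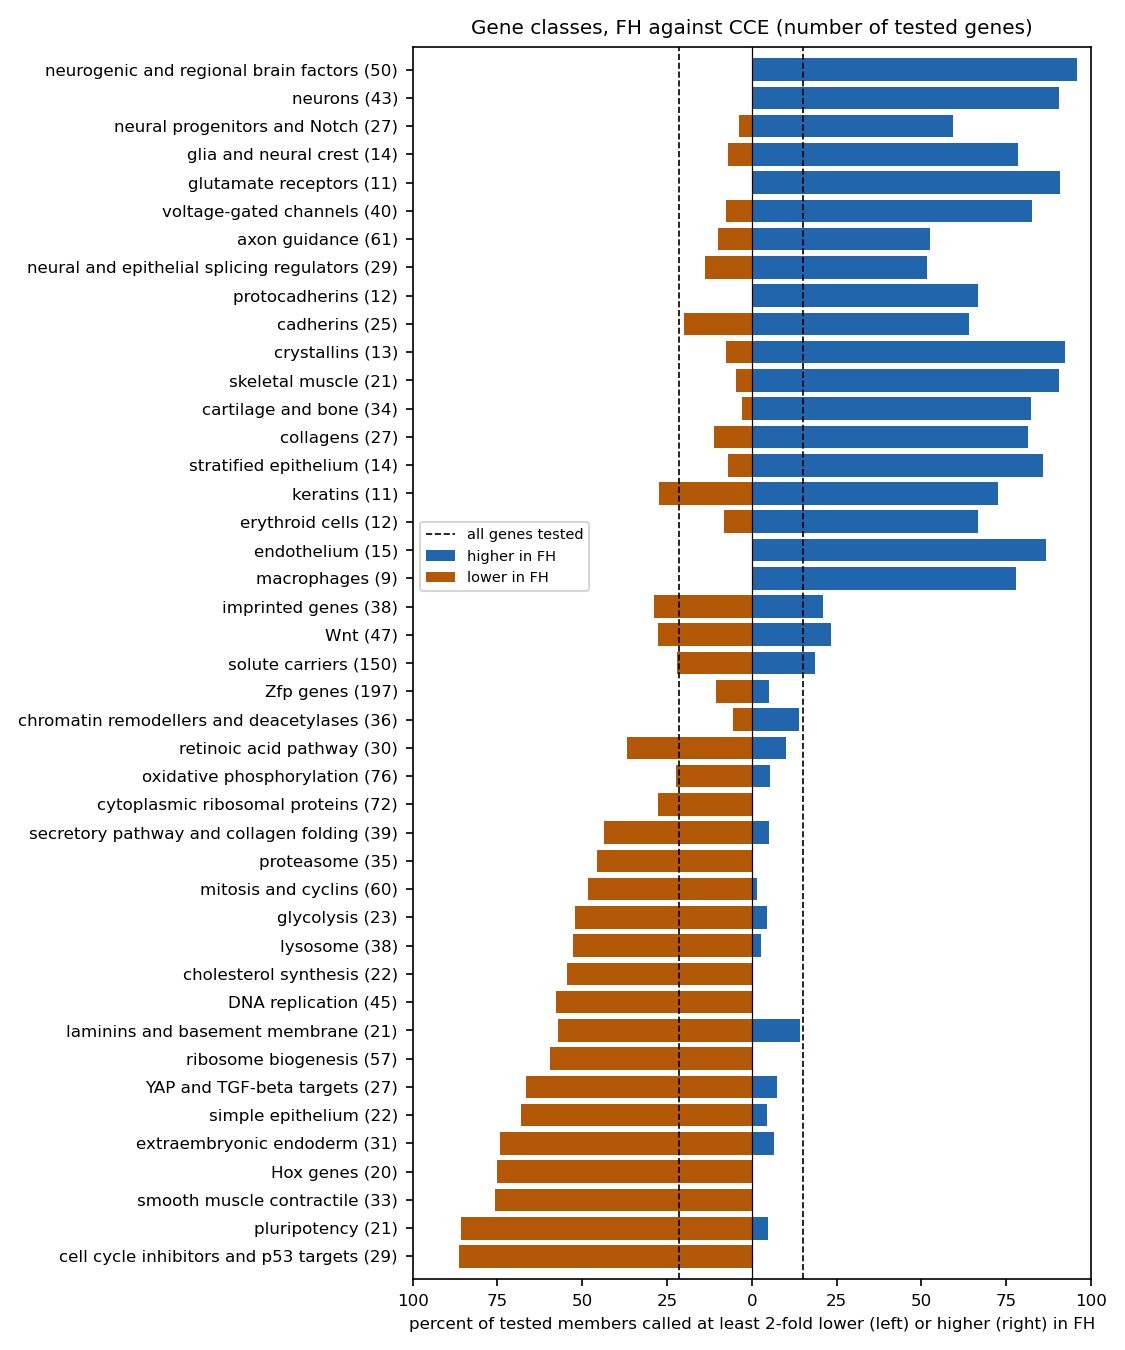
Percent of the tested members of each gene class called at least 2-fold higher (right, blue) or lower (left, brown) in FH, with the number of tested genes in brackets and the shares over all genes tested, 15% and 21.5%, as dashed lines. Classes of neural, sensory, skeletal and epidermal genes reach beyond the right line, those of pluripotency, smooth muscle and p53 beyond the left one.

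The tissue labels were checked against defining markers. Those of neurons (Dcx, Stmn2), cartilage (Col2a1, Acan), basal epidermis (Krt5), muscle (Myog), lens (Cryaa) and red cells (Hbb-y) were higher in FH, and CCE was not free of all of them, with a mean RPKM of 18.1 ± 6.498 in CCE and 275 ± 95.8 in FH for Stmn2 and a mean RPKM of 32.6 ± 18.3 in CCE and 53.4 ± 15.4 in FH for Acta1, the actin of skeletal muscle. The pluripotency markers Pou5f1 (a mean RPKM of 16.5 ± 3.65 in CCE and 0 ± 0 in FH), Nanog and Zfp42 were present in CCE and at or near 0 in FH. Some defining markers did not pass the RPKM limit in either tissue: Pax6, a factor of neural progenitors and eye, had a mean RPKM of 0.446 ± 0.0460 in CCE and 1.33 ± 0.197 in FH, and Myh11, the heavy chain of mature smooth muscle, had a mean RPKM of 0.712 ± 0.156 in CCE and 0.264 ± 0.186 in FH. Cdx2 and Elf5, which define trophoblast, were also under the limit. CCE held markers of several kinds of cell and is described below by its genes.

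The list of neurogenic and regional brain transcription factors held the largest share of members called higher in FH among lists with at least 9 tested genes: 48 of 50 tested members (72 in the annotation) were called higher and 0 lower, with a median log2 fold change of 2.58 (2.72 with genes without tags at their bound). Neurog2, a proneural factor of the cortex, had RPKM values of 0, 0.309, 0.296 and 0 in CCE and 74.7, 45.4, 25.6 and 57.1 in FH (log2 fold change 5.40 ± 0.27, adjusted p = 3.37e-08). It was under 1 RPKM in every CCE library and separate from FH. Neurod6, a factor of young cortical neurons, had no tag in CCE and RPKM values of 27.9, 25.7, 34.3 and 31.3 in FH, at least 156-fold higher in FH. The list holds factors of different regions of the brain. The cortical factors Emx1 (3.30), Tbr1 (3.19) and Fezf2 (3.98), the ventral forebrain factors Dlx1 (3.76) and Nkx2-1 (2.37), and En2 of midbrain and cerebellum (1.505) were all higher, the values being log2 fold changes. Of the remaining members 2 were tested and not called, Dmrta2 and Sp8, and 22 were under the RPKM limit.

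In the list of neuronal genes 39 of 43 tested members (47 in the annotation) were called higher and 0 lower, with a median log2 fold change of 2.36. Dcx, doublecortin of migrating neurons, had RPKM values of 0.0320, 0.218, 0.0521 and 0 in CCE and 37.4, 33.0, 35.9 and 41.5 in FH (log2 fold change 5.14 ± 0.15, adjusted p = 1.79e-09). Stmn3, a stathmin that regulates neuronal microtubules, had RPKM values of 1.74, 3.56, 2.27 and 1.80 in CCE and 248, 147, 92.9 and 180.4 in FH (log2 fold change 5.596 ± 0.26, adjusted p = 2.35e-08). The pan-neuronal tubulin Tubb3 was measured in CCE as well, with RPKM values of 16.7, 21.4, 12.7 and 10.6 in CCE and 388, 231, 88.4 and 200.5 in FH, and the FH libraries ranged widely but did not overlap with CCE. Stmn2 and the growth cone protein Gap43 (a mean RPKM of 12.7 ± 4.54 in CCE and 66.0 ± 18.7 in FH) were likewise present in CCE and higher in FH, with log2 fold changes of 3.85 and 2.31. The neurofilament gene Nefl (0.86) was among the 4 tested members not called. The 11 tested glutamate receptors (of 26 in the annotation) had 10 called higher and 0 lower, with a median log2 fold change of 2.29, with Grin2b, a subunit of the NMDA receptor, at a mean RPKM of 0.0211 ± 0.0421 in CCE and 5.32 ± 0.825 in FH. All 4 tested GABA and glycine receptor genes were called higher, of 26 in the annotation. Among 40 tested voltage-gated channels of 131 in the annotation, 33 were called higher and 3 lower (median log2 fold change 1.89). The calcium channel subunit Cacng4 (4.02) was higher, while the inward rectifier Kcnj4 was lower with RPKM values of 4.52, 5.13, 2.76 and 3.89 in CCE and 0, 0, 0.583 and 0.218 in FH.

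In the list of progenitor and Notch genes 16 of 27 tested members (31 in the annotation) were called higher and 1 lower, with a median log2 fold change of 1.35, on the exon tag scale 18 and 0. Hes5, a target of Notch, had no tag in CCE and RPKM values of 26.7, 29.2, 21.1 and 27.9 in FH, at least 88.8-fold higher in FH. The ligands Dll1 (2.34), Dll3 (1.73), Jag1 (1.35) and Jag2 (1.499) and the receptor Notch1 (1.47) were higher, while the receptor Notch3 (-0.87) was not called, the values being log2 fold changes. Sox2, shared by progenitors and ES cells, had RPKM values of 12.2, 12.6, 10.2 and 8.93 in CCE and 22.9, 24.5, 17.3 and 24.0 in FH, higher in every FH library but short of 2-fold (log2 fold change 0.95 ± 0.16, adjusted p = 3.10e-04). Its log2 fold change in Ribo-Zero was -1.02. Vim, vimentin of progenitors and of many mesenchymal cells, was lower in FH with RPKM values of 756, 379, 354 and 652 in CCE and 295, 225, 139.9 and 229.8 in FH (log2 fold change -1.23 ± 0.33, adjusted p = 0.00615). In glia and neural crest 11 of 14 tested members (27 in the annotation) were called higher and 1 lower, with a median log2 fold change of 1.90 (2.08 with genes without tags at their bound). Sox10 of neural crest and glia had no tag in CCE and RPKM values of 14.98, 14.99, 7.38 and 15.03 in FH, at least 89.7-fold higher in FH, and Olig2 of oligodendrocyte precursors had none in CCE and RPKM values of 5.24, 5.25, 5.39 and 7.501 in FH. Pmp22, known from peripheral myelin and also from other cells, was lower in FH (a mean RPKM of 172 ± 42.6 in CCE and 23.1 ± 11.55 in FH).

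Guidance and adhesion genes of the nervous system moved in both directions. Among axon guidance genes 32 of 61 tested members (73 in the annotation) were called higher and 6 lower, with a median log2 fold change of 1.07. The receptor Epha5 had no tag in CCE and RPKM values of 11.4, 10.2, 12.6 and 14.3 in FH, at least 297-fold higher in FH, whereas its relative Epha2 had RPKM values of 33.6, 36.5, 35.9 and 32.5 in CCE and 3.24, 3.62, 2.01 and 2.11 in FH (log2 fold change -3.28 ± 0.16, adjusted p = 2.99e-08). Unc5b, a netrin receptor, was also lower in FH (-3.32). Of 43 cadherins in the annotation 25 were tested, with 16 called higher and 5 lower and a median log2 fold change of 1.08. Celsr3 (3.19), Cdh22 (3.14) and Cdh4 (2.89) were higher, and the epithelial Cdh1 (-2.95) and Cdh3 (-2.71) lower. The 12 tested protocadherins (of 36 in the annotation) had 8 called higher and 0 lower, with a median log2 fold change of 1.72, led by Pcdh8 (3.77). Tubulin genes differed. Tubb2b had a mean RPKM of 28.8 ± 10.04 in CCE and 233 ± 94.2 in FH (2.94), and Tubb6 had a mean RPKM of 408 ± 123.4 in CCE and 62.3 ± 27.8 in FH (-2.78).

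Regulators of RNA splicing that differ between neurons and other cells were mostly called higher. Among 29 tested neural and epithelial splicing regulators of 33 in the annotation, 15 were called higher and 4 lower (median log2 fold change 1.76). On the exon tag scale 16 were higher and 2 lower. Celf3, expressed in neurons, had RPKM values of 0.589, 0, 0.240 and 0.571 in CCE and 51.5, 49.6, 23.3 and 38.4 in FH (log2 fold change 4.91 ± 0.25, adjusted p = 3.37e-08). Ptbp1, which represses neuronal exons in other cells, had RPKM values of 46.4, 37.0, 28.3 and 39.1 in CCE and 18.8, 15.8, 9.62 and 12.8 in FH (log2 fold change -1.36 ± 0.18, adjusted p = 6.65e-05), and its neuronal paralogue Ptbp2 had a log2 fold change of 0.81 that was not called. Paralogues also differed in the BAF chromatin remodelling complex. Actl6b, the subunit of neurons, had no tag in CCE and RPKM values of 28.2, 23.7, 18.0 and 27.2 in FH, at least 118-fold higher in FH, while Actl6a, the subunit of dividing cells, had RPKM values of 31.6, 46.6, 39.5 and 24.8 in CCE and 20.9, 14.4, 11.1 and 17.0 in FH (log2 fold change -1.12 ± 0.22, adjusted p = 0.00109). Dpf1, also known from neurons, was higher in FH (2.62). Most other members of the list of remodellers and deacetylases were not called (5 higher and 2 lower of 36 tested, median log2 fold change 0.03).

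Lens and retina genes mark the eye. Of 16 crystallins in the annotation 13 were tested, with 12 called higher and 1 lower and a median log2 fold change of 4.34 (5.11 with genes without tags at their bound). Cryga, a gamma crystallin of lens fibres, had no tag in CCE and RPKM values of 91.3, 77.0, 41.2 and 79.6 in FH, at least 133-fold higher in FH. The exception was Cryab, which lens shares with muscle and stressed cells and which had RPKM values of 67.6, 27.3, 38.3 and 76.3 in CCE and 5.18, 5.40, 3.17 and 2.77 in FH (log2 fold change -3.30 ± 0.32, adjusted p = 4.35e-06). In the Ribo-Zero libraries its log2 fold change was -0.05. Of 20 retina genes only 3 passed the RPKM limit, and all were called higher. Atoh7, needed for retinal ganglion cells, had no tag in CCE and RPKM values of 26.3, 9.14, 1.39 and 22.9 in FH, at least 17.4-fold higher in FH. Its FH values were uneven, each of them above CCE. Six3, a factor of retinal progenitors and forebrain, was under the limit with a mean RPKM of 0 ± 0 in CCE and 1.06 ± 0.286 in FH.

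Genes of skeletal muscle and of the skeleton were mostly called higher in FH. The 21 tested skeletal muscle genes (of 40 in the annotation) had 19 called higher and 1 lower, with a median log2 fold change of 2.89 (3.26 with genes without tags at their bound). Myog, the factor that starts terminal muscle differentiation, had no tag in CCE and RPKM values of 67.1, 38.0, 20.3 and 58.9 in FH, at least 173-fold higher in FH. Mylpf, a light chain of fast fibres, had RPKM values of 3.65, 7.78, 4.46 and 4.13 in CCE and 259.5, 151, 109 and 226 in FH (log2 fold change 4.93 ± 0.28, adjusted p = 8.11e-08). Acta1, the actin of skeletal muscle, had RPKM values of 38.6, 55.2, 22.8 and 13.7 in CCE and 67.3, 64.5, 34.6 and 47.0 in FH and was not called (log2 fold change 0.82), with overlap of the tissues, and Des, desmin of all muscle types, was lower in FH (-1.52). Among 34 tested cartilage and bone genes of 37 in the annotation, 28 were called higher and 1 lower (median log2 fold change 2.61). Col2a1, the main collagen of cartilage, had RPKM values of 2.01, 1.48, 0.764 and 1.56 in CCE and 100.3, 74.9, 49.3 and 82.3 in FH (log2 fold change 4.97 ± 0.21, adjusted p = 1.34e-08). Matn1 of cartilage matrix had no tag in CCE and RPKM values of 32.4, 34.02, 16.9 and 23.4 in FH, at least 134.3-fold higher in FH, and the bone genes Col1a1 (3.27) and Runx2 (2.08) were higher too. Msx2, a homeobox gene of skull and limb, was the member called lower (a mean RPKM of 9.95 ± 3.69 in CCE and 2.45 ± 0.395 in FH).

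The promoter of Mylpf is shown because 13 of 34 promoter windows, which covered 31 genes, of the skeletal muscle list (38.2%) held the E-box CAGCTG, the site of the MyoD family, against 16.3% of all 32851 promoter windows. Overlapping windows of Tnni1 hold the same site and were both counted, and of the genes with a match Des was called lower and Acta1 was not called. The motif was also in 33.3% of the windows of the crystallin list, 25.6% of the neuronal list and 20.6% of the genes called higher in FH. Windows run from 250 bases before to 50 after a RefSeq start site (GRCm38.p6) and both strands were searched; only the bases before the start are printed, 5′ to 3′ along the gene, with the motif in capitals. The Mylpf window lies at chr7:127211358-127211607, plus strand. The window of Alas2, the erythroid enzyme that starts haem synthesis, lies at chrX:150547167-150547416, plus strand and holds a GATA site, AGATAA on the other strand, as did 5 of 15 windows (14 genes) of the erythroid list (33.3%) against 28.6% of the keratin list and 11.2% of all. A match in these letters is a description and shows no binding.
Mylpf: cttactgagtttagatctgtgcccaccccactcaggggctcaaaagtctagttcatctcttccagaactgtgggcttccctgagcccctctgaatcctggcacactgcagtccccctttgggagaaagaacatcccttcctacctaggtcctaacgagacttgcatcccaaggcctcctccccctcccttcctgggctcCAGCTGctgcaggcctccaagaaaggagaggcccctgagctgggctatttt
Alas2: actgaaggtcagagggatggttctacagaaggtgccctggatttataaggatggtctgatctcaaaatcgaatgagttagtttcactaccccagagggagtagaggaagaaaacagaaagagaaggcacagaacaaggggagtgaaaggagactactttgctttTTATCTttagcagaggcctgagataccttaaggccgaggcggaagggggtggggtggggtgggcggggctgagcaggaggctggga

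Collagen genes were called higher in FH in most cases (22 higher and 3 lower of 27 tested, median log2 fold change 2.48), and the few lower ones were of another kind. The fibrillar genes Col1a2 (4.09), Col3a1 (2.32), Col5a1 (2.07) and Col11a2 (4.30) and the beaded filament genes Col6a1 (2.995), Col6a2 (4.18) and Col6a3 (4.52) were higher, all given as log2 fold changes. The 3 lower ones, Col4a2 (-1.65), Col4a5 (-2.14) and Col18a1 (-1.89), belong to basement membranes. Col18a1 had RPKM values of 68.9, 31.3, 28.9 and 55.0 in CCE and 12.3, 12.8, 8.20 and 10.8 in FH. In the list of laminins and basement membrane genes 3 of 21 tested members (28 in the annotation) were called higher and 12 lower, with a median log2 fold change of -1.54. Lama5 (-2.60) and Lama1 (-2.06) were lower, and Lama4 of vessels (2.56) and Col15a1 (3.23) higher. Lox, which cross-links collagen and elastin, had RPKM values of 0.775, 0.586, 0.421 and 0.556 in CCE and 38.9, 30.2, 27.3 and 41.9 in FH (log2 fold change 4.47 ± 0.18, adjusted p = 1.12e-08), whereas its relative Loxl2 had RPKM values of 97.8, 85.5, 71.1 and 85.0 in CCE and 17.7, 16.8, 11.004 and 13.9 in FH (log2 fold change -2.45 ± 0.17, adjusted p = 3.26e-07). Elastin (Eln) itself, in none of the lists, had RPKM values of 0, 0.533, 0.255 and 0 in CCE and 79.8, 57.5, 29.6 and 50.8 in FH.

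Keratins differed by type of epithelium. Of 50 keratins in the annotation 11 were tested, with 8 called higher and 3 lower and a median log2 fold change of 2.78 (2.97 with genes without tags at their bound). Genes of stratified epidermis were mostly called higher in FH. Krt5 of the basal layer had no tag in CCE and RPKM values of 97.1, 86.8, 49.2 and 83.3 in FH, at least 436-fold higher in FH, and Krt10 of the layers above it had RPKM values of 0.579, 2.63, 0 and 0.998 in CCE and 46.5, 30.3, 23.01 and 36.9 in FH (log2 fold change 4.21 ± 0.31, adjusted p = 5.21e-07). The 3 lower keratins were those of simple epithelia: Krt8 (-4.84), Krt18 and Krt19. Krt18 had RPKM values of 247, 271, 162 and 153 in CCE and 4.05, 3.59, 4.02 and 3.68 in FH (log2 fold change -5.39 ± 0.19, adjusted p = 5.33e-09), and Krt19 had RPKM values of 247, 338, 279 and 180.3 in CCE and 14.3, 11.8, 4.72 and 11.6 in FH (log2 fold change -4.55 ± 0.27, adjusted p = 1.04e-07). In the wider list of simple epithelium 1 of 22 tested members (28 in the annotation) was called higher and 15 lower, with a median log2 fold change of -1.69, among them the tight junction gene Cldn6 with RPKM values of 112, 125, 118 and 100.3 in CCE and 4.39, 1.82, 1.25 and 3.73 in FH. The stratified epithelium list had 12 higher and 1 lower of 14 tested. Its factor Trp63 had a mean RPKM of 0 ± 0 in CCE and 2.03 ± 0.568 in FH and was under the limit.

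**Figure D2:**
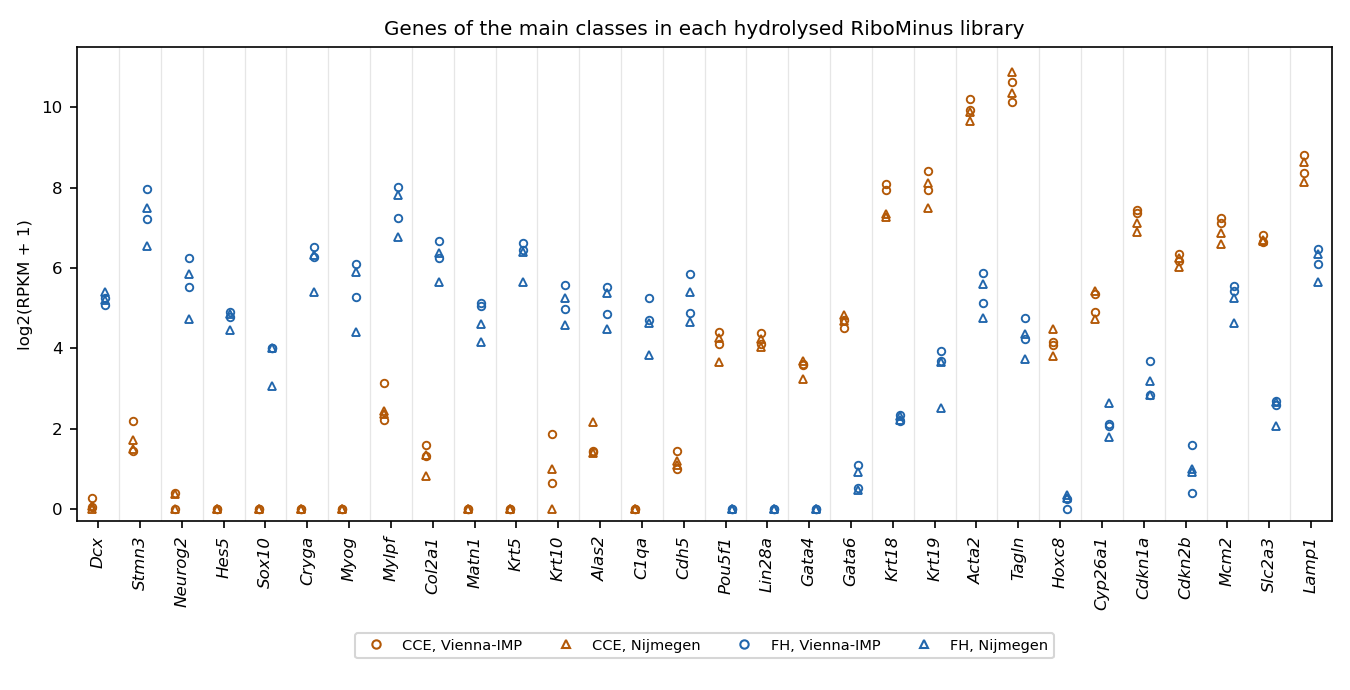
Expression of 30 genes from the main classes in each hydrolysed RiboMinus library, as log2(RPKM + 1), with CCE in brown, FH in blue, circles for Vienna-IMP and triangles for Nijmegen. For each of these genes the 4 FH libraries lie wholly above or wholly below the 4 CCE libraries. The rule that named members in the main direction of a list asked for this separation, so it is no result.

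Blood, vessel and macrophage genes were mostly called higher. The 12 tested erythroid genes (of 25 in the annotation) had 8 called higher and 1 lower, with a median log2 fold change of 3.23. Alas2 had RPKM values of 1.68, 1.72, 1.64 and 3.48 in CCE and 45.2, 27.9, 21.4 and 40.8 in FH (log2 fold change 3.46 ± 0.26, adjusted p = 6.75e-07) and Hba-x, an embryonic alpha-like globin, had RPKM values of 1.72, 1.47, 0 and 0 in CCE and 43.3, 42.9, 20.02 and 30.5 in FH. The transferrin receptor Tfrc, used by every dividing cell, was the member called lower (-1.70). Globin genes have close copies and tags with several places in the genome were dropped, so their RPKM values are uncertain. Among 15 tested endothelial genes of 23 in the annotation, 13 were called higher and 0 lower (median log2 fold change 1.97). Cdh5, the cadherin of endothelium, had RPKM values of 1.01, 1.73, 1.16 and 1.31 in CCE and 56.7, 28.7, 24.2 and 41.0 in FH (log2 fold change 4.003 ± 0.24, adjusted p = 1.21e-07), and Kdr, the main VEGF receptor, had a mean RPKM of 2.06 ± 0.893 in CCE and 8.24 ± 1.86 in FH. Of 24 macrophage genes in the annotation 9 were tested, with 7 called higher and 0 lower and a median log2 fold change of 2.40 (3.46 with genes without tags at their bound). The complement genes C1qa, C1qb and C1qc had no tag in CCE, C1qa having RPKM values of 37.3, 25.04, 13.2 and 23.9 in FH, at least 65.3-fold higher in FH. Csf1r (0.78) and Cd68 (-0.76) were not called.

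The genes lower in FH included most of the tested pluripotency genes. The 21 tested pluripotency genes (of 36 in the annotation) had 1 called higher and 18 lower, with a median log2 fold change of -2.61. Lin28a, an RNA-binding protein that blocks let-7 maturation, had RPKM values of 16.1, 20.03, 17.7 and 15.5 in CCE and no tag in FH, at least 160.2-fold lower in FH. Trim71, another gene of the let-7 pathway, had RPKM values of 24.2, 13.4, 17.5 and 27.4 in CCE and 0, 0.704, 0.241 and 0.452 in FH (log2 fold change -3.98 ± 0.24, adjusted p = 1.29e-07). Levels of the core factor genes in CCE were modest: Nanog had RPKM values of 5.95, 9.21, 6.17 and 4.66 in CCE and 0, 0, 0 and 0.209 in FH, and Zfp42 RPKM values of 8.31, 11.1, 8.78 and 6.97 with no tag in FH. Nodal (at least 30.2-fold lower in FH) and, on the log2 scale, its antagonist Lefty1 (-3.12) and the pathway factor Foxh1 (-2.86) were lower. The exception was Klf4, which is also a gene of skin, with RPKM values of 3.44, 6.97, 4.09 and 2.39 in CCE and 13.3, 14.03, 8.18 and 10.4 in FH (log2 fold change 1.30 ± 0.21, adjusted p = 2.53e-04). Its log2 fold change in Ribo-Zero was -0.06.

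CCE held genes of extraembryonic endoderm. Among 31 tested extraembryonic endoderm genes of 40 in the annotation, 2 were called higher and 23 lower (median log2 fold change -1.65). Gata4 and Gata6, the factors that specify this lineage, had RPKM values of 11.2, 11.1, 8.42 and 11.9 with no tag in FH, and RPKM values of 25.3, 21.6, 24.7 and 27.7 in CCE and 0.444, 1.14, 0.392 and 0.881 in FH (log2 fold change -3.93 ± 0.18, adjusted p = 2.27e-08). Gata4 was at least 113-fold lower in FH. Cubn, an uptake receptor of visceral endoderm, had RPKM values of 29.3, 23.1, 24.1 and 39.1 in CCE and 0.400, 0.541, 0.583 and 0.516 in FH (log2 fold change -4.28 ± 0.18, adjusted p = 1.34e-08), and its partner Lrp2 followed (-2.87). Foxa2 (-2.60), Sox17 (-1.69) and Dab2 (-1.13) were lower as well, and the secreted protease Plat had RPKM values of 134.2, 172, 163 and 135 in CCE and 21.5, 18.6, 12.1 and 22.6 in FH (log2 fold change -2.98 ± 0.22, adjusted p = 5.30e-07). Afp and Hnf4a, further genes of this lineage, were under the RPKM limit. Ttr, transthyretin, which choroid plexus makes too, went the other way with RPKM values of 9.62, 15.8, 9.18 and 7.29 in CCE and 204, 132, 121 and 171 in FH (log2 fold change 3.80 ± 0.23, adjusted p = 1.24e-07), and so did Snai1 (1.10).

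The actin-based contractile genes had the largest difference in summed level between the tissues among the lists that were lower in FH. Of 37 contractile genes of smooth muscle in the annotation 33 were tested, with 0 called higher and 25 lower and a median log2 fold change of -1.95, and the summed level of the list was 3815 to 4975 RPKM in the CCE libraries and 409.5 to 623 in the FH libraries. Acta2, smooth muscle actin, had RPKM values of 979, 1185, 949 and 811 in CCE and 57.6, 34.1, 26.0 and 47.9 in FH (log2 fold change -4.58 ± 0.27, adjusted p = 9.25e-08). Tpm1 (-3.20), Myl9 (-2.89), Vcl (-2.60), Actn1 (-2.47) and Cald1 (-2.12) of the same apparatus were lower too. Tpm2 (0.54) was not called, and Myh11 and Myocd, which mark mature smooth muscle, were under the limit. In the Ribo-Zero libraries, made from other RNA of both tissues, the list had a median log2 fold change of -1.05, against -1.95 here. Acta2 had a log2 fold change of -0.85 and Actg2 of 0.26, against -4.58 and -3.36 here. Genes known to respond to YAP and TGF-beta followed (2 higher and 18 lower of 27 tested, median log2 fold change -1.44). Cyr61 had a mean RPKM of 37.5 ± 5.65 in CCE and 3.72 ± 0.581 in FH. Of 26 integrins, which bind cells to matrix, 9 were tested, with 1 called higher and 5 lower, and without the filter on low values 5 were called in each direction. Itga3 had RPKM values of 73.6, 49.1, 43.2 and 58.2 in CCE and 4.55, 5.04, 3.18 and 4.597 in FH (log2 fold change -3.40 ± 0.19, adjusted p = 6.53e-08) and Itgb1 a log2 fold change of -2.17.

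Many contractile genes are known targets of SRF, which binds the CArG box. A CArG box stood in 8 of 36 promoter windows (30 genes) of the smooth muscle list (22.2%), against 14.7% in the skeletal muscle list and 535 of all 32851 windows (1.63%). The genes with a match were Cnn2, Fhl1, Fhl2 (in both of its windows), Filip1l, Myl9, Srf and Vcl, and of these Fhl1 and Srf were not called. The windows of Cnn2 (chr10:79988350-79988599, plus strand) and Myl9 (chr2:156775214-156775463, plus strand) are shown in the same form as before, with the CArG box in capitals.
Cnn2: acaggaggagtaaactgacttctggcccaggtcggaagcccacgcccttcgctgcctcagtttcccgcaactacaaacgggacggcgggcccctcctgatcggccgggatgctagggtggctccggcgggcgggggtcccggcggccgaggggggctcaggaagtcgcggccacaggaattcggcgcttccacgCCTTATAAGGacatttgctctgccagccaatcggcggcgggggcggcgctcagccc
Myl9: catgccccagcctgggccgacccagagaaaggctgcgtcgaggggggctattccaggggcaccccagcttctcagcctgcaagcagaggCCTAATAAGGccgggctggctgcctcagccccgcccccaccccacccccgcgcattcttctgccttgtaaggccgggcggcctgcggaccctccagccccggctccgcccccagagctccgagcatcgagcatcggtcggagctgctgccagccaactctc

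Genes of the retinoic acid pathway were mixed (3 higher and 11 lower of 30 tested, median log2 fold change -0.81), with 5 higher and 7 lower on the exon tag scale. The receptors Rara (-0.80) and Rxra (0.43) were not called. Rarb, a receptor that retinoic acid induces, had RPKM values of 15.2, 13.6, 14.4 and 15.2 in CCE and 8.04, 5.27, 6.08 and 8.83 in FH, higher in every CCE library but just short of 2-fold (log2 fold change -0.98 ± 0.18, adjusted p = 5.22e-04). Rxrg, a receptor of neurons and muscle, had RPKM values of 0.176, 0.300, 0 and 0.455 in CCE and 11.52, 8.15, 7.08 and 9.999 in FH (log2 fold change 3.04 ± 0.19, adjusted p = 1.85e-07). Cyp26a1, which degrades retinoic acid and is induced by it, had RPKM values of 28.7, 39.6, 42.0 and 25.4 in CCE and 3.20, 3.35, 2.47 and 5.29 in FH (log2 fold change -2.94 ± 0.23, adjusted p = 7.99e-07). Dhrs3 (-1.65) and Rdh10 (-1.29), which set retinal levels, and Stra6 (-1.14), which takes up retinol, were lower in FH, and Aldh1a3, which makes retinoic acid in eye and nose, was higher (1.77). Stra8, a retinoic acid target of germ cells, had RPKM values of 2.47, 3.06, 4.75 and 2.03 in CCE and no tag in FH.

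Rarb and Cyp26a1 are printed since they were the only genes of this list with a match to the DR5 element, a direct repeat of the receptor half-site with 5 bases between. It stood in 2 of 42 windows (25 genes) of the list (4.76%), in 1 of 15 windows of the erythroid list (6.67%) and in 32 of all windows (0.0974%). The windows lie at chr14:16575477-16575726, minus strand and chr19:37697558-37697807, plus strand, and the element, in capitals, begins 53 bases before the start site of Rarb and 32 bases before that of Cyp26a1.
Rarb: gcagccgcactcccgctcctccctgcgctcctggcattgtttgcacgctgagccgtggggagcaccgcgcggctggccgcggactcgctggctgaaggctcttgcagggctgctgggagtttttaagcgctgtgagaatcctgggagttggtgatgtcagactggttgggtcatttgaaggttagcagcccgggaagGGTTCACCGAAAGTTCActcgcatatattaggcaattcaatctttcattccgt
Cyp26a1: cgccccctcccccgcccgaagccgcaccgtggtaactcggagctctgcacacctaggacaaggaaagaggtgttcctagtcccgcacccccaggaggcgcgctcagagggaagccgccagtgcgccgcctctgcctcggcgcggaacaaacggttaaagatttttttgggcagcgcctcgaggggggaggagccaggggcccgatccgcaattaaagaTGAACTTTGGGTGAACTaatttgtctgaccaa

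The tested Hox genes were lower in FH or not called, and none was called higher (0 higher and 15 lower of 20 tested, 39 in the annotation, median log2 fold change -2.09). The plot of Hox genes gives the mean level by cluster for paralogue groups 2 to 13. The highest mean level was that of Hoxa5, with a mean RPKM of 32.6 ± 11.9 in CCE and 7.99 ± 5.41 in FH (log2 fold change -2.03). Hoxc8 had RPKM values of 16.7, 15.9, 21.5 and 12.96 in CCE and 0, 0.199, 0.272 and 0.204 in FH (log2 fold change -3.91 ± 0.18, adjusted p = 2.17e-08), and Hoxb9 RPKM values of 17.6, 23.8, 16.4 and 19.7 in CCE and 0.918, 1.60, 0.486 and 1.09 in FH (log2 fold change -3.35 ± 0.19, adjusted p = 6.60e-08). For both, every CCE library was above every FH library. Hoxa10 and Hoxc9 had no tag in FH and mean RPKM values of 4.38 ± 0.322 and 3.66 ± 0.286 in CCE. Of the early paralogue groups, Hoxa2 (-0.37) and Hoxb3 (-0.10, above 0 on the exon tag scale) were not called, with mean RPKM values of 6.88 ± 1.63 and 8.40 ± 2.83 in FH, while Hoxb1 (-2.70), which retinoic acid induces early, was lower. Hoxa3 (-0.75), Hoxa4 (-0.93) and Hoxb6 (-0.91) fell short of 2-fold and were not called either. In the Hoxd cluster only Hoxd9 was tested, and it was called lower (-1.19). Under the RPKM limit, mean RPKM was higher in FH for Hoxa6 (1.96 in CCE and 2.46 in FH), Hoxb5 (1.19 and 1.78), Hoxd1 (0.969 and 2.03) and Hoxd3 (1.82 and 2.70). The other Hox genes under the limit had lower means in FH. Among other families of transcription factors, the Sox list had 6 higher and 1 lower of 13 tested (9 and 1 on the exon tag scale) and the Fox list 5 higher and 6 lower of 23 (5 and 5 on the exon tag scale, 8 and 6 without the filter on low values).

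**Figure D3:**
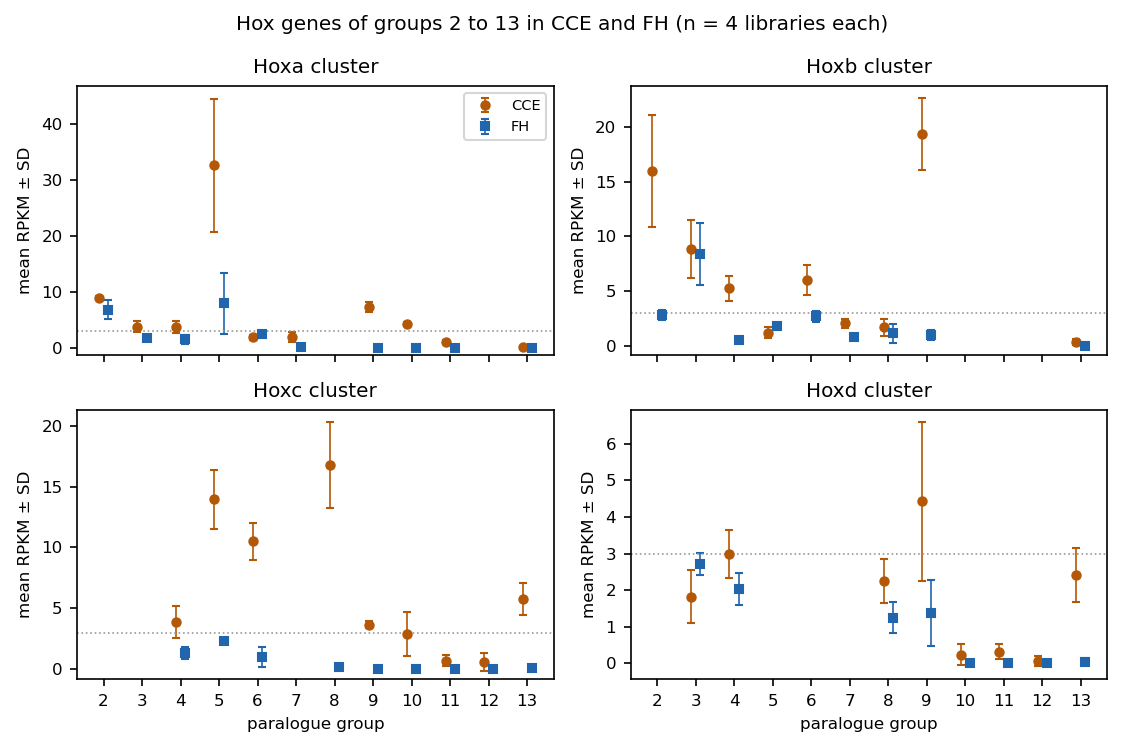
Mean RPKM (points) and SD (bars) of the Hox genes of paralogue groups 2 to 13 over the 4 libraries of CCE (brown) and of FH (blue), by cluster and group, with the RPKM limit of 3 as a dotted line. FH levels are highest for Hoxb3, Hoxa5 and Hoxa2 and near 0 for groups 9 to 13 of the Hoxa and Hoxc clusters.

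Inhibitors of the cell cycle and p53 targets were mostly called lower in FH. The 29 tested cell cycle inhibitors and p53 targets (of 32 in the annotation) had 0 called higher and 25 lower, with a median log2 fold change of -2.26. With exon tag scaling 2 were called higher and 24 lower. Cdkn2b, an inhibitor of CDK4 and CDK6 that neighbours Cdkn2a on chromosome 4 (Cdkn2b at chr4:88952198-88956941 and Cdkn2a at chr4:88920377-88940557, mm9), had RPKM values of 71.4, 80.5, 74.7 and 63.8 in CCE and 2.04, 0.328, 0.899 and 1.01 in FH (log2 fold change -5.21 ± 0.23, adjusted p = 1.66e-08). Cdkn2a, which encodes p16 and Arf, had a mean RPKM of 114 ± 23.9 in CCE and 0 ± 0 in FH, at least 346-fold lower in FH. Cdkn1a, p21, had RPKM values of 163, 173, 138 and 119 in CCE and 6.17, 11.9, 8.16 and 6.11 in FH (log2 fold change -4.07 ± 0.21, adjusted p = 3.89e-08). Ccng1, a classic p53 target, had RPKM values of 106, 171, 159 and 111 in CCE and 5.92, 7.15, 8.55 and 4.40 in FH (log2 fold change -4.20 ± 0.23, adjusted p = 6.89e-08), Mdm2 (-3.02), Phlda3 (-3.37) and Zmat3 (-2.75) were lower too, and Trp53 itself had -1.96, all as log2 fold changes. Cdkn1c (0.38), an inhibitor of many embryonic tissues, was not called. Proliferation genes also held more lower than higher calls. Among 45 tested DNA replication genes of 48 in the annotation, 0 were called higher and 26 lower (median log2 fold change -1.15). In the list of mitosis genes and cyclins 1 of 60 tested members (69 in the annotation) was called higher and 29 lower, with a median log2 fold change of -0.99. Mcm2 of the replicative helicase had RPKM values of 138, 151, 115 and 96.2 in CCE and 46.3, 41.9, 23.6 and 37.3 in FH (log2 fold change -1.74 ± 0.20, adjusted p = 1.57e-05) and Aurka, a mitotic kinase, a mean RPKM of 41.7 ± 5.36 in CCE and 11.3 ± 3.29 in FH. Mki67, the usual marker of dividing cells, had RPKM values of 4.78, 7.11, 6.73 and 5.86 in CCE and 3.24, 3.54, 5.47 and 5.63 in FH and was not called (-0.40). On the exon tag scale 14 replication genes and 16 mitosis genes were called lower.

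Metabolic and growth classes lay further below 0 than the median of all genes. Of 24 glycolysis genes in the annotation 23 were tested, with 1 called higher and 12 lower and a median log2 fold change of -1.04. The glucose transporter Slc2a3 had RPKM values of 99.6, 111, 102 and 100.2 in CCE and 5.41, 4.98, 3.20 and 5.31 in FH (log2 fold change -4.21 ± 0.17, adjusted p = 1.34e-08), Slc2a1 a mean RPKM of 82.0 ± 11.8 in CCE and 19.8 ± 4.602 in FH, and Ldha a log2 fold change of -1.51. Aldoc, the aldolase of brain, was higher with RPKM values of 2.11, 4.01, 4.44 and 1.92 in CCE and 13.04, 14.001, 8.25 and 11.2 in FH (log2 fold change 1.65 ± 0.24, adjusted p = 1.03e-04), while its log2 fold change in Ribo-Zero was -0.62. The 22 tested cholesterol synthesis genes (of 25 in the annotation) had 0 called higher and 12 lower, with a median log2 fold change of -1.18. For the lysosome the list had 1 higher and 20 lower of 38 tested, median log2 fold change -1.13, and for ribosome biogenesis 0 higher and 34 lower of 57 tested, median log2 fold change -1.13. The lysosome gene Lamp1 had RPKM values of 329, 445, 397 and 279.5 in CCE and 88.4, 67.7, 49.4 and 81.1 in FH (log2 fold change -2.33 ± 0.25, adjusted p = 9.31e-06), and the nucleolar Gnl3 a mean RPKM of 37.2 ± 3.38 in CCE and 7.45 ± 1.54 in FH. Among 35 tested proteasome genes of 43 in the annotation, 0 were called higher and 16 lower (median log2 fold change -0.91). Among tRNA synthetases 0 of 20 tested members (20 in the annotation) were called higher and 11 lower, with a median log2 fold change of -1.02. Cytoplasmic ribosomal proteins (0 higher and 20 lower of 72 tested, median log2 fold change -0.70) and oxidative phosphorylation (4 higher and 17 lower of 76 tested, median log2 fold change -0.52) were nearer to all genes. On the exon tag scale the lower calls numbered 7 for cytoplasmic ribosomal proteins, 5 for oxidative phosphorylation, 3 for tRNA synthetases, 6 each for the proteasome and cholesterol synthesis, 16 for ribosome biogenesis, 17 for the lysosome and 8 for glycolysis. Ribosomal protein genes have many close copies, so their levels are uncertain. Within oxidative phosphorylation, isoforms of certain tissues differed in direction: Cox6a2 of muscle had no tag in CCE and RPKM values of 4.31, 9.03, 3.80 and 3.56 in FH, while Cox7a1 had RPKM values of 14.4, 20.8, 32.6 and 17.2 in CCE and 3.90, 2.51, 1.72 and 5.15 in FH.

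The list of miRNA and small RNA machinery had 2 higher and 6 lower of 17 tested, median log2 fold change -0.35, its median being near that of all genes (-0.38), and on the exon tag scale 3 were higher and 4 lower. Lin28b (-2.36) was lower like Lin28a, and Drosha (-1.10) was lower whereas Tnrc6c (1.45) was higher. The Argonaute genes Eif2c1 and Eif2c2 differed in opposite directions: Eif2c1 had a mean RPKM of 6.78 ± 1.58 in CCE and 16.9 ± 2.71 in FH, and Eif2c2 had a mean RPKM of 15.3 ± 5.80 in CCE and 4.96 ± 0.722 in FH. Of 31 genes of meiosis and germline 6 were tested and 5 called lower, among them the piRNA pathway gene Mael (-2.36) and Syce1 of the synaptonemal complex (-2.20). Among 16 tested DNA methylation genes 4 were called lower (25%, against 21.5% of all genes), with the ES cell cofactor Dnmt3l at RPKM values of 5.82, 9.44, 8.59 and 4.72 in CCE and no tag in FH, and Dnmt3b at a mean RPKM of 6.60 ± 0.8501 in CCE and 1.42 ± 0.416 in FH. In the polycomb list Cbx7 of ES cells had RPKM values of 75.3, 88.3, 76.6 and 69.2 in CCE and 2.49, 2.77, 0.330 and 2.47 in FH (log2 fold change -4.80 ± 0.27, adjusted p = 7.10e-08), and Cbx6 was higher in FH (1.61). The list had 1 higher and 7 lower of 28 tested on the main scale, and 4 and 4 on the exon tag scale. In the list of antigen presentation and interferon genes 0 of 13 tested members (33 in the annotation) were called higher and 7 lower, with a median log2 fold change of -1.09, the peptide transporter Tap1 having RPKM values of 12.03, 10.4, 13.8 and 10.02 in CCE and 0.690, 0.167, 0.686 and 0.599 in FH.

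Signalling lists were mixed. In the Wnt list 11 of 47 tested members (65 in the annotation) were called higher and 13 lower, with a median log2 fold change of -0.21, a split that turned to 13 higher and 7 lower on the exon tag scale and to 14 and 13 without the filter on low values. Fzd9 had RPKM values of 0.529, 0.6004, 0.287 and 0.684 in CCE and 12.8, 13.9, 9.28 and 16.6 in FH (log2 fold change 3.19 ± 0.19, adjusted p = 1.20e-07), Fzd7 RPKM values of 45.0, 39.9, 41.7 and 39.6 in CCE and 7.68, 8.47, 7.82 and 6.93 in FH (log2 fold change -2.29 ± 0.15, adjusted p = 2.02e-07), and the ligand Wnt9a was lower in FH (-2.60). Among FGF genes 5 of 18 tested members (41 in the annotation) were called higher and 1 lower, with a median log2 fold change of 0.16. Fgfr3 (2.09) was higher and Dusp6, a feedback inhibitor of FGF signalling, had RPKM values of 115, 118, 97.0 and 94.6 in CCE and 30.1, 19.4, 17.0 and 21.8 in FH (log2 fold change -2.24 ± 0.19, adjusted p = 1.48e-06). BMP genes had 3 higher and 11 lower of 40 tested, median log2 fold change -0.32, and on the exon tag scale 7 and 7. Bmp4 (-2.49) and its targets Id1 (-1.91) and Id3 (-2.25) were lower, and Id4 (3.57) higher. Hedgehog genes were mostly not called (2 higher and 0 lower of 12), Gli1 having a mean RPKM of 10.7 ± 2.53 in CCE and 16.1 ± 3.71 in FH. The chemokine receptor Cxcr4 and its ligand Cxcl12 were both higher in FH, with log2 fold changes of 1.45 and 1.25.

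Imprinted genes, expressed from 1 parental allele and often strong in embryos, split without a common direction (8 higher and 11 lower of 38 tested, median log2 fold change -0.15). Nnat, neuronatin of the brain, had RPKM values of 173, 197, 177 and 155 in CCE and 1986, 1212, 875 and 1520.5 in FH (log2 fold change 2.93 ± 0.29, adjusted p = 6.29e-06), and Magel2 (3.09), Ndn (1.58) and Mest (2.35) were higher with it. Igf2 was the most abundant of the list in CCE, with RPKM values of 1225, 1227, 955 and 931 in CCE and 422, 393, 281 and 347 in FH (log2 fold change -1.59 ± 0.26, adjusted p = 2.53e-04). Impact had RPKM values of 54.9, 65.0, 68.5 and 62.3 in CCE and 2.20, 3.59, 4.56 and 3.28 in FH (log2 fold change -3.88 ± 0.18, adjusted p = 2.11e-08), Slc38a4 RPKM values of 65.1, 82.8, 71.7 and 62.0 in CCE and 3.05, 3.97, 4.19 and 4.30 in FH (log2 fold change -3.87 ± 0.17, adjusted p = 1.50e-08) and Peg10 a mean RPKM of 309 ± 112 in CCE and 23.7 ± 1.67 in FH. Peg3 (-1.91) and Phlda2 (-2.54) were lower too.

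Outside the lists, 1076 of 8144 tested genes were called higher and 1603 lower. Among the 10 with the largest fitted rise were Lum, Eln, Nsg2, Lrrc4b, Ly6h, Islr2, Sln, Gpm6a and Tagln3. Lumican (Lum), a proteoglycan of connective tissue and cornea, had RPKM values of 0.195, 0.332, 0 and 0.252 in CCE and 96.8, 65.4, 79.0 and 98.9 in FH (log2 fold change 6.16 ± 0.18, adjusted p = 1.79e-09). Tagln3, a neuronal relative of Tagln, had RPKM values of 5.22, 6.66, 6.37 and 3.37 in CCE and 253, 168, 113 and 229 in FH (log2 fold change 4.87 ± 0.26, adjusted p = 5.44e-08), while Tagln of smooth muscle was lower (-6.22). Among the 10 with the largest fall were Podxl, podocalyxin of epithelial and ES cell surfaces, with RPKM values of 336, 308, 292 and 349 in CCE and 12.1, 8.32, 7.41 and 12.1 in FH (log2 fold change -4.90 ± 0.21, adjusted p = 1.34e-08), the mesothelial and urothelial Upk3b, with RPKM values of 30.7, 30.5, 28.1 and 27.2 in CCE and no tag in FH, and Dusp9, a MAP kinase phosphatase, with RPKM values of 168, 229, 189 and 117 in CCE and 11.1, 5.54, 2.30 and 7.40 in FH (log2 fold change -4.65 ± 0.32, adjusted p = 2.98e-07). Others were Lrrn4, Spink3, Fmr1nb, Eda2r, Dusp5, Rnf128 and Ecm1.

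Several large families followed the background or lay under it. Among genes named Zfp 10 of 197 tested members (361 in the annotation) were called higher and 21 lower, with a median log2 fold change of -0.05, and on the exon tag scale 20 were higher and 11 lower. Among solute carriers 28 of 150 tested members (331 in the annotation) were called higher and 33 lower, with a median log2 fold change of -0.25, and on the exon tag scale 33 were higher and 22 lower, or 46 and 35 on the main scale without the filter on low values. The zinc transporter Slc39a4 had RPKM values of 6.96, 9.43, 10.5 and 5.31 in CCE and 0, 0.404, 0 and 0 in FH. None of 1113 olfactory receptor genes reached the RPKM limit, with a summed level of 0.651 to 4.10 RPKM in the CCE libraries and 7.72 to 13.4 in the FH libraries. For replication-dependent histones, whose RNA has no poly(A) tail and is kept by ribosomal depletion, 1 of 56 tested members (67 in the annotation) was called higher and 10 lower, with a median log2 fold change of -0.55, and 5 were lower on the exon tag scale. Hist1h1a had RPKM values of 180.2, 217, 209 and 160.2 in CCE and 29.1, 93.0, 82.9 and 35.1 in FH.

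Genes on chromosome 8 had lower fold changes (FH to CCE) than those of other chromosomes, which is a description over genes. Of its 608 tested genes 8.88% were called higher and 41.9% lower, with a median log2 fold change of -0.86, against 15.3% and 20.2% of the 9799 genes elsewhere and a median of -0.35. The medians of the other autosomes and of chromosome X lay between -0.45 and -0.29. Of all its tested genes 70.7% lay below the median of all genes. The shift was present along the chromosome, with medians of -0.88, -0.81 and -0.85 for the genes in its 3 parts of equal length, and the Ribo-Zero pair had -1.03, the Nijmegen libraries -0.94 and the Vienna-IMP ones -0.81. On the exon tag scale the median was -0.53. It touches genes named above that lie there, among them Lamp1, Cdh1, Cdh3, Itgb1, Plat and Zfp42, and its part in their values was not tested. Tubb3 and Cdh5 lie there too and were higher in FH. Medians by exon length had a smaller range, from -0.50 for genes with up to 1 kb of exon to -0.12 for those over 8 kb.

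**Figure D4:**
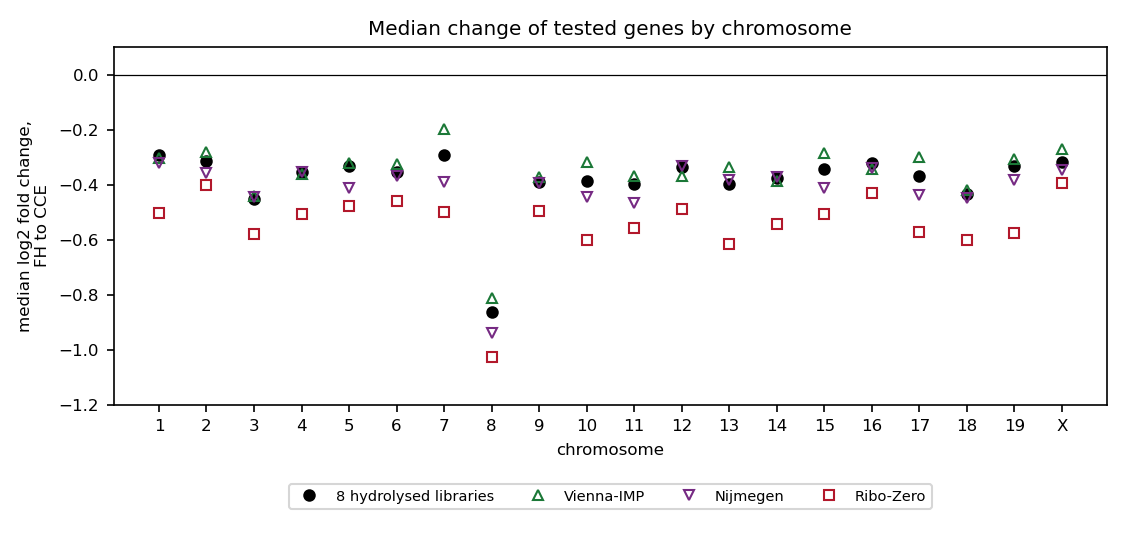
Median log2 fold change (FH to CCE) of the tested genes on each chromosome in the 8 hydrolysed libraries, within Vienna-IMP, within Nijmegen and in the Ribo-Zero libraries. Chromosome 8 lies at -0.81 to -1.03 in all of them, below every other chromosome shown.

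Of the 3796 called genes 3461 (91.2%) passed an adjusted p under 0.05 in the same direction in each location alone. The 4 FH libraries did not overlap with the 4 CCE libraries in 3675. Both counts follow largely from the calls, which came from these same 8 libraries. The locations sequenced the same cDNA and are no independent repeats. Over all 10407 genes tested, FH lay wholly above CCE in 1993 and wholly below in 3963. Vienna-IMP alone gave 2039 higher and 3326 lower genes of 10465 tested, and Nijmegen 1643 and 2906 of 10339. A difference between the locations in the FH to CCE change passed for 1 gene, Gm17616 (limma interaction, adjusted over all genes tested). At an unadjusted p under 0.05, 155 of 10407 passed. Each location holds both preparations of each tissue, so their spread enters the error of this test but cancels in the difference tested. The share that chance gives is therefore not known, and agreement of the locations cannot be read from this count. The Ribo-Zero libraries hold 1 library per tissue from other RNA, so their changes are given as values without a test. Of the 3213 called genes over an RPKM of 3 in either of them, 3153 (98.1%) had the same direction, 96.9% of the higher and 98.8% of the lower ones, while 72.7% of all genes tested were lower there and their median was -0.54. The plot of class medians shows most lists near the diagonal. Classes with a Ribo-Zero median nearer to 0 included crystallins (4.34 here and 2.98 there), splicing regulators (1.76 and 0.73), glia and neural crest (1.90 and 0.97), smooth muscle (-1.95 and -1.05), the Sox list (0.95 and 0.08) and laminins (-1.54 and -0.67). Those further from 0 there included pluripotency (-2.61 and -3.66), mitosis and cyclins (-0.99 and -1.71), replication-dependent histones (-0.55 and -1.31) and polycomb (-0.36 and -0.83). The median had the opposite sign there for FGF genes (0.16 and -0.34), remodellers and deacetylases (0.03 and -0.32), matrix proteases and inhibitors (-0.77 and 0.02), claudins and connexins (0.41 and -0.18) and chemokines and interleukins (0.28 and -0.01).

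**Figure D5:**
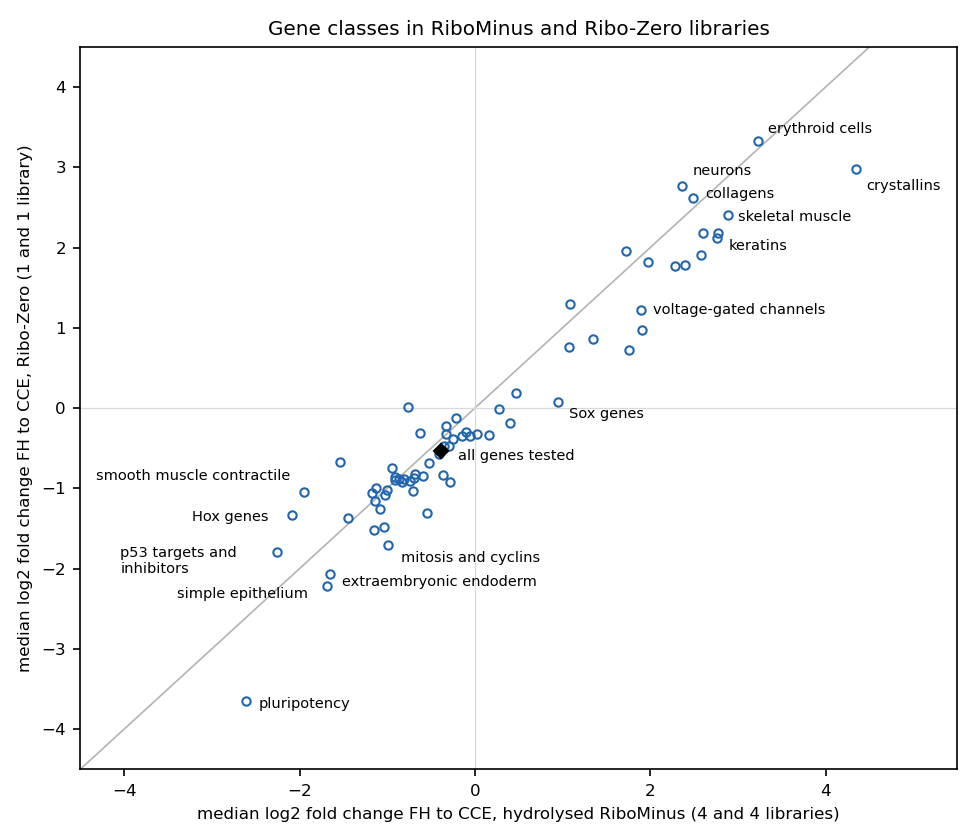
Median log2 fold change (FH to CCE) of each list with at least 9 tested genes (circles) in the hydrolysed RiboMinus libraries (x axis) and in the Ribo-Zero libraries (y axis), with all genes tested as a black diamond and the line of equal values in grey. Pluripotency is lowest and crystallins are highest on the x axis.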

How the data were processed

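The authors mapped single 36 nt reads of the RiboMinus libraries with Bowtie to mm9, allowing 2 mismatches. They kept reads with a unique place, removed ribosomal and mitochondrial tags and did not map splice junctions. Ribo-Zero reads were longer, with more mismatches allowed, and their mitochondrial tags were kept (8.23% of unique tags in CCE and 4.54% in FH). These tags were left out of the total for Ribo-Zero RPKM here. The deposited files list each tag's position with a score column that is constant in the lines examined and was not used. Tag midpoints in merged exons of GENCODE M1 protein-coding genes were counted here and scaled to RPKM over all unique tags. For 142 gene entries the symbol was already used by another entry, and all entries were kept in the fit and its counts. Where a list names such a symbol, the entry with the longest exons was taken. Genes with a mean RPKM over 3 in either tissue were tested with limma 3.58.1 (R 4.3.3, trend, location as covariate) on log2(RPKM + 1), two-sided, Benjamini-Hochberg adjusted, at 0.05, and called at 2-fold or more. Tag shares were compared with exact permutation tests (scipy 1.17.1). The fit was also run on simulated data, and the outcome is not reported here. Members, gene lists and tests were chosen with earlier results of these data known. For each list up to 4 members with the largest change in its main direction and up to 2 in the other were named, with defining markers and the 10 largest changes each way outside the lists; further members were named after their values were seen, and some genes that this rule names are not reported here. Motifs were counted in RefSeq promoter windows (GRCm38.p6), those of chromosome 18 not being used here. Preparations with the same number at both locations did not deviate together (correlation of deviations -0.64 for CCE and -0.50 for FH), and no replicate block was used, since the numbers may be exchanged at 1 location. With 1452794 to 2473448 unique tags a library, precision for genes of few tags is limited: 42 tested genes had under 20 tags in all 8 libraries, and floors cover counting error only.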

Additional observations from a re-analysis of the deposited data

Results flagged for a closer look

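Of 130 groups of 4 libraries examined for a value far from the rest (83 genes given library by library, where their mean RPKM was over 3, and the tag shares), 3 held one by Dixon's test at its 95% level, where chance gives about 1 in 20. Olig2 reached 7.501 RPKM in FH2 at Nijmegen, against 5.24 to 5.39 in the other FH libraries. Sox10 was lowest in FH1 at Nijmegen with 7.38 RPKM, against 14.98 to 15.03 in the others. Cox6a2 reached 9.03 RPKM in FH2 at Vienna-IMP, against 3.56 to 4.31. All of these FH values lay above those of the CCE libraries.

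The FH to CCE change differed between the locations for Gm17616, a gene on chromosome 9 with 72 bases of exon, by -3.19 on the log2 scale (Nijmegen minus Vienna-IMP, limma interaction, adjusted p = 0.0252). It had 9.15 and 7.26 RPKM in the CCE libraries from Nijmegen and 0 in all others, and these values rest on 2 tags.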

How the results depend on the processing

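No gene called in either direction was called in the opposite one under any of the other settings tried. Without a filter on low values 3922 genes were higher and 5113 lower in FH, of 17512 tested. With a mean RPKM over 10 the counts were 992 higher and 2945 lower, with 695 at least 2-fold higher, of 5427 genes tested. On the exon tag scale more genes were higher (3373) than lower (2963), with 2093 and 1250 of them at least 2-fold. With median-of-ratios scaling 3168 were higher and 3239 lower, with 1989 and 1372 at least 2-fold. The Nijmegen libraries alone gave 2906 lower genes. Leaving out 1 library at a time gave 2109 to 2446 higher and 4197 to 4588 lower genes, and 1516 to 1668 and 2138 to 2412 at least 2-fold. Of 73 lists with unequal counts, the direction ahead was the same for 65 on the exon tag scale and for 68 to 73 otherwise. The difference in the share of exon tags was -14.4 percentage points at Vienna-IMP and -17.2 at Nijmegen (exact permutation p = 0.333 for each, the smallest that 2 against 2 allows). Hoxb3 changed sign, with a log2 fold change of 0.24 on the exon tag scale, 0.19 with median-of-ratios scaling and -0.30 to 0.14 without 1 library.

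With a replicate block by preparation number 2660 genes were higher and 5463 lower (1558 and 2244 at least 2-fold), and it changed no call of a named gene. Other settings did. On the exon tag scale 8 of 199 tested named genes lost their call, 5 gained one and 1 changed sign. With a pseudocount of 3, 11 of 200 lost their call. With the pairing of the numbers at Nijmegen exchanged, a setting taken from earlier work on these data, the counts were 1984 and 3900 (1545 and 2219). The fitted correlation within a preparation was 0.48 in that setting and -0.50 with the numbers as given. A limit of 20 tags over the 8 libraries, chosen after seeing the data, gave 1544 and 2228 genes at least 2-fold. The tag depth limits genes of low level, and the cause of the changes in count was not tested.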
